A study of Mus musculus with 2 samples.

Results

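The genes described here are 8 transcription factors that set up and keep B cell and plasma cell identity, namely Pax5, Ebf1, Spib, Pou2f2, Pou2af1, Bcl11a, Mef2c and Xbp1, together with Jchain, which is not a transcription factor but encodes the joining chain of secreted antibody. They were chosen by gene symbol, and all 9 had a row among the 20938 genes measured. Splenic Treg cells were taken on day 7 after islet transplantation and sequenced as 1 RNA-seq library for each genotype, Foxp3-Mettl14f/+ cKO and littermate control, which are called the cKO and the control sample here. The cKO mice carry 1 floxed Mettl14 allele that is deleted by Cre driven from Foxp3, so that only Foxp3-expressing cells are targeted and 1 Mettl14 allele remains, while the control is labelled wild type and was given in the study's methods as a Mettl14f/f littermate. All recipients were on a C57BL/6J background, had been made diabetic with streptozotocin and received BALB/c islets under the kidney capsule; the mice of both genotypes that were sequenced had not been given the tolerance-inducing antibodies. The labels name the genotype of the second library as a knockdown of Foxp3, and the genotype of the study is used here. Treg cells were enriched with magnetic beads by depleting cells other than CD4+ T cells and then selecting CD25+ cells.

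B cells are made from bone marrow progenitors under the control of EBF1 and PAX5, which switch on the B cell receptor and its coreceptors and hold the cell in the B lineage. In the mature B cell the octamer factor OCT2 (encoded by Pou2f2), its coactivator OBF1 (Pou2af1) and the Ets factor SPI-B support signaling and the germinal centre response, in which BCL6 directs the mutation and selection of antibody genes. A B cell that becomes a plasma cell loses PAX5 and takes up BLIMP1 (Prdm1), IRF4 and XBP1, the last of which expands the secretory pathway. The question was whether mature B cell, germinal centre or plasma cell transcripts differed between the libraries, and in which direction.

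The promoters of 4 genes are shown because the results turn on the contrast between them: Pax5 and Spib were among the genes that differed most, Pou2af1 lay near the threshold, and Jchain was nearly equal in both libraries. Each window holds 250 bases before and 50 bases after the start of transcription in RefSeq on GRCm38.p6, written 5′ to 3′ on the strand of the gene. Capitals mark matches to motifs searched on both strands.
Pax5: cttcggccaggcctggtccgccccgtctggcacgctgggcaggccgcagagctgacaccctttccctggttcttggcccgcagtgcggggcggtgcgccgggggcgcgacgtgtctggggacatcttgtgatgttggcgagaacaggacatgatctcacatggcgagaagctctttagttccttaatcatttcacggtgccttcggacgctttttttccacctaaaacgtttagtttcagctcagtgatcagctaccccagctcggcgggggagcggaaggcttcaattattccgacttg
Spib: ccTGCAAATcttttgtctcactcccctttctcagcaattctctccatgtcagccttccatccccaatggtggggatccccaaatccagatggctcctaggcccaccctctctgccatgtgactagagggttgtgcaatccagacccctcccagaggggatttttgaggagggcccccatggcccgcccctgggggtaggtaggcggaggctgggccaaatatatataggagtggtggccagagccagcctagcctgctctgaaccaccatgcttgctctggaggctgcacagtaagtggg
Pou2af1: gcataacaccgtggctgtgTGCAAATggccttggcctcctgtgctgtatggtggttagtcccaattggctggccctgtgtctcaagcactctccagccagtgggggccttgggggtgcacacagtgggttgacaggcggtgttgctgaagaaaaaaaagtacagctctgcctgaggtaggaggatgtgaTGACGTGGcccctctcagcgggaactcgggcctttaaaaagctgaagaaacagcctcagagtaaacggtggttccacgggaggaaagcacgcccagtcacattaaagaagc
Jchain: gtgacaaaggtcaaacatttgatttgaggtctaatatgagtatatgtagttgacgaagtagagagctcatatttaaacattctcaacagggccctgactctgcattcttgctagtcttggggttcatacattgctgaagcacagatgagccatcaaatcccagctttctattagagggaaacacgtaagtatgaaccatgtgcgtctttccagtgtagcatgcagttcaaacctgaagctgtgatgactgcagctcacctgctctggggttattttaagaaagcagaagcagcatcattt
The windows lie at chr4:44710645-44710944 on the minus strand (Pax5), chr7:44532022-44532321 on the minus strand (Spib), chr9:51213440-51213739 on the plus strand (Pou2af1) and chr5:88527848-88528147 on the minus strand (Jchain). The capitals are TGCAAAT, the core of the octamer bound by OCT2, in Spib and Pou2af1, and TGACGTGG, an unfolded protein response element of the kind bound by XBP1, in Pou2af1. Among the 32851 promoter windows of the RefSeq table, 4.02% hold TGCAAAT and 0.676% hold TGACGTGG. The longer octamer ATGCAAAT, which contains the core, is in 1.74% of all windows, the palindromic EBF site in 0.904% and the Ets site AGGAAGT in 9.35%, and none of these 3 was found in the 12 windows of the 9 genes. TATAAA, the TATA box, is in 13.6% of all windows and was found only at 2 of the 3 start sites of Mef2c. A match of letters is a description of the sequence, and binding was not measured.

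In the cKO sample Pax5, Ebf1, Spib, Pou2f2, Mef2c, Pou2af1 and Bcl11a were higher by 1.5-fold or more, and none of the 9 genes was at least 1.5-fold lower. This is 7 of 9 genes, whereas 17.2% of the 16659 genes compared, which are those whose mean over both samples reached 1, were as much higher and 24.2% as much lower. The median log2 ratio of the 9 genes was 1.03, beside -0.04 for all genes compared. Xbp1 and Jchain, which are most strongly expressed in plasma cells, were the 2 genes under 1.5-fold. With 15 surface and signaling genes of mature B cells, such as Cd79a and Cd79b, set equal between the samples, only Pax5 and Ebf1 stayed 1.5-fold higher and 6 of the 9 genes were 1.5-fold lower. Under that scaling most genes were lower: of the 16229 genes compared, 15509 were at least 1.5-fold lower and 345 as much higher. Here a level is the deposited value, which is a read count divided by 1 factor for each library, and a ratio is the level plus 1 in the cKO sample over the level plus 1 in the control sample on the log2 scale. No genotype had a replicate, so no difference has a replicate check and no p-value is given. The intervals are exact Clopper-Pearson intervals at 95%, computed from read counts. They cover counting error alone. No source used here mentions molecular identifiers, which would tell copies of 1 molecule apart. If copies were counted as separate reads, the intervals are too narrow even for counting error. Brackets that follow the reads of a gene give its log2 ratio and this interval.

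**Figure D1:**
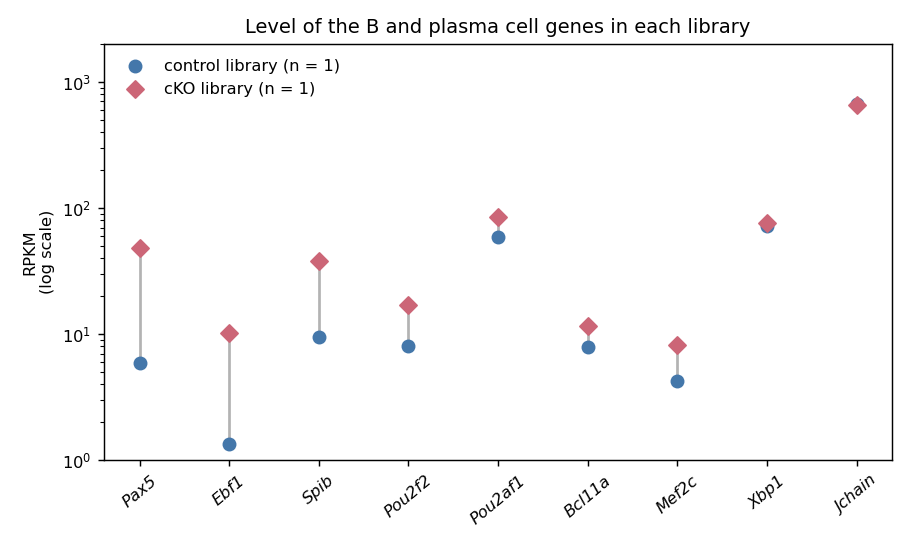
Level of each of the 9 genes in the control sample (circles) and the cKO sample (diamonds), in RPKM (reads per kilobase of exon and 1000000 recovered reads) on a log axis, with 1 library per genotype. Pax5 and Ebf1 have the longest connecting lines, from 5.94 to 47.9 and from 1.34 to 10.1, whereas the symbols of Xbp1 and Jchain lie on each other.

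The libraries held 20239325 recovered reads for the control and 18327535 for the cKO, and every one of the 9 genes had at least 264 reads in both. Mettl14, the targeted gene, had a level of 917 in the control and 741 in the cKO, a log2 ratio of -0.31 (95% interval -0.45 to -0.16), and Foxp3 had levels of 1497 and 1548. The 16 T cell core genes, such as Cd4, Lck and Tcf7, were all detected in both libraries, with summed levels of 72661 and 58724, and the 10 Treg genes had summed levels of 7298 and 7784. Transcripts of other cells were also present: 8 neutrophil genes summed to 240730 and 332032, and 10 macrophage genes to 4319 and 13394. In such bulk samples, more cells of a type and more RNA per cell cannot be told apart.

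Pax5, on chromosome 4 from 44524757 to 44710487 (GRCm38, minus strand), encodes the factor that commits a cell to the B lineage. It had 1065 reads in the control and 7778 in the cKO, and its level went from 1030 to 8845. The log2 ratio was 3.10 (95% interval 3.01 to 3.20), the 403rd highest of the 16659 genes. Ebf1, on chromosome 11 from 44617317 to 45008091 (plus strand), encodes the factor that acts beside PAX5 in early B cell development. Its reads were 264 and 1810 and its levels 255 and 2058, which gave a ratio of 3.01 (2.82 to 3.20), the 407th highest. The intervals of Pax5 and Ebf1 overlapped widely, so these counts do not order the 2 genes. Their levels differed in absolute terms, since in the cKO sample Pax5 had an RPKM (reads per kilobase of exon and 1000000 reads) of 47.9 and Ebf1 of 10.1. In GENCODE, 636 exon bases of Pax5 are shared with 5730488B01Rik and 125 with Gm12462 on the opposite strand, and the sources used here do not say whether reads were counted by strand.

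Spib, on chromosome 7 from 44525993 to 44532071 (minus strand), encodes an Ets factor of B cells and plasmacytoid dendritic cells. It had 552 reads in the control and 1995 in the cKO, with levels of 534 and 2269 and a log2 ratio of 2.08 (95% interval 1.95 to 2.23). Its interval lay below those of Pax5 and Ebf1 and above those of the remaining 6 genes. Pou2f2, also on chromosome 7 from 25087344 to 25179726 (minus strand), went from a level of 1308 to 2937, on 1352 and 2583 reads, a ratio of 1.17 (1.07 to 1.26). Pou2af1, on chromosome 9 from 51213708 to 51240080 (plus strand), had levels of 2928 and 4545 on 3027 and 3997 reads, a ratio of 0.63 (0.57 to 0.70). OCT2 and its coactivator OBF1 act on the same octamer sites, yet the intervals of their transcripts did not overlap. The interval of Pou2af1 included the 1.5-fold threshold, which is 0.58 on this scale.

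Mef2c, on chromosome 13 from 83504034 to 83667080 (plus strand), encodes a MADS-box factor that acts downstream of the B cell receptor and is also expressed by myeloid cells. Its levels were 1310 and 2668 on 1354 and 2346 reads, a log2 ratio of 1.03 (95% interval 0.93 to 1.12) that overlapped that of Pou2f2. Bcl11a, on chromosome 11 from 24078056 to 24174123 (plus strand), encodes a zinc finger factor needed for B cell development that also silences fetal globin genes in red cell precursors. It had levels of 2047 and 3164 on 2116 and 2782 reads, a ratio of 0.63 (0.55 to 0.71), an interval that included the threshold. With the libraries scaled to their total reads, Bcl11a was at 0.54 and Pou2af1 at 0.54, both under 1.5-fold, and 5 of the 9 genes remained past it. Of the merged exons of Bcl11a, 316 bases are shared with 4930538E20Rik on the opposite strand.

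Xbp1, on chromosome 11 from 5520659 to 5525893 (plus strand), encodes the factor of the unfolded protein response that plasma cells need to secrete antibody. Its levels were 4553 and 5164 on 4707 and 4541 reads, a log2 ratio of 0.18 (95% interval 0.12 to 0.24). Jchain, on chromosome 5 from 88519809 to 88527891 (minus strand), was the most abundant of the 9 genes in both libraries, with levels of 33025 and 34155 on 34138 and 30035 reads and a ratio of 0.05 (0.03 to 0.07). With library totals as the scale the sign of Jchain turned, to -0.04. Per length, Jchain had an RPKM of 670 and 651, against 71.6 and 76.3 for Xbp1. Because it was so abundant, Jchain held 70.3% of the reads of the 9 genes in the control sample and 51.9% in the cKO sample. There were 32.1 Jchain reads for each Pax5 read in the control sample and 3.86 in the cKO sample. Without Jchain, the summed level of the other 8 genes was 13966 in the control and 31649 in the cKO, a log2 ratio of 1.18.

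Ranked per length, the order in the control sample was Jchain, Xbp1 at 71.6, Pou2af1 at 58.7, Spib at 9.51, Pou2f2 at 8.10, Bcl11a at 7.94, Pax5 at 5.94, Mef2c at 4.26 and Ebf1 at an RPKM of 1.34. In the cKO sample Pou2af1 at 85.6 was above Xbp1 at 76.3, and Pax5 at 47.9 was above Spib at 38.0. Pax5 thus went from the seventh to the fourth place, while Ebf1 at 10.1 stood between Bcl11a at 11.5 and Mef2c at 8.15. These levels use the merged exon length of GENCODE, which is at least that of any 1 transcript, so the order of close neighbours depends on the gene model.

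Surface and signaling genes of mature B cells, many of them known targets of PAX5 and EBF1, were higher in the cKO sample as well. All 15 of the list were at least 1.5-fold higher, with log2 ratios from 1.11 (Blnk) to 2.67 (Cr2) and a median of 2.26, and none was at 0 in either library. Their summed level was 10606 in the control and 48178 in the cKO. Among the most abundant, Cd79a, a signaling chain of the B cell receptor, had 1012 and 4318 reads, Bank1, a B cell scaffold protein, 886 and 4328, Ms4a1, which encodes CD20, 1227 and 4017, and the complement receptor gene Cr2 793 and 4307. The ratios of Pax5 and Ebf1 exceeded those of all 15 genes, and the intervals of these 15 genes lay wholly below those of both factors. Spib lay within the range of the list, above 6 of the 15 genes, and Pou2f2 was above 1 of them. Mef2c, Pou2af1, Bcl11a, Xbp1 and Jchain were below all 15.

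**Figure D2:**
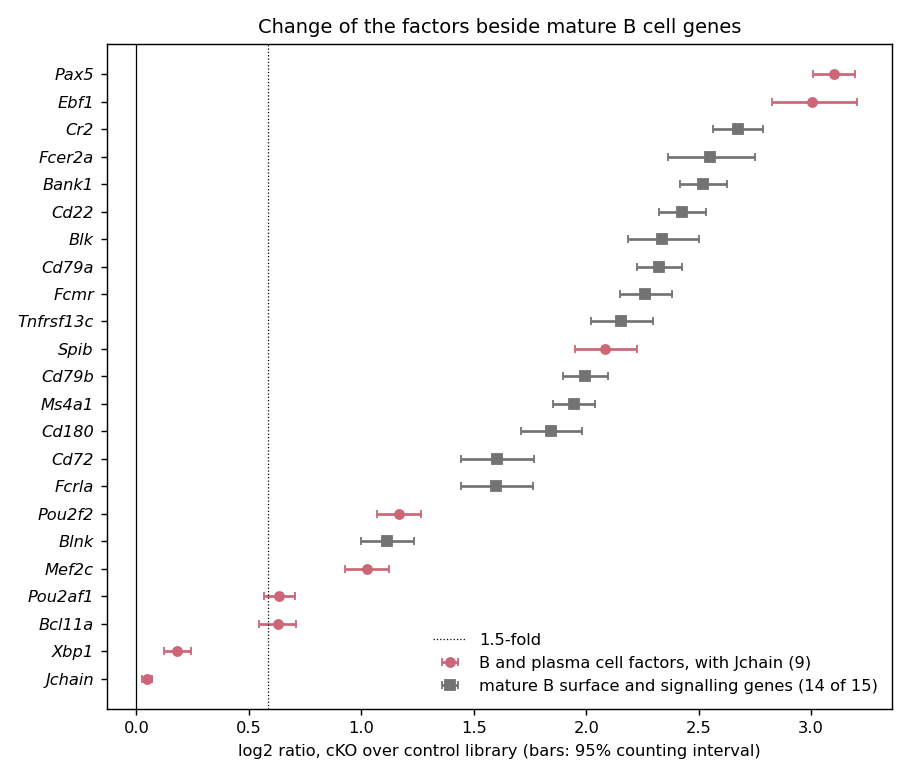
Log2 ratio of the cKO over the control sample for the 9 genes (circles) and the mature B cell genes (squares, 1 of the 15 not shown), sorted, with 95% counting intervals as bars and the 1.5-fold threshold dotted. Pax5 and Ebf1 at 3.10 and 3.01 stand above Cr2 at 2.67, and Xbp1 and Jchain at 0.18 and 0.05 stand left of the threshold.

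Set against the reads of these 15 genes, the 9 genes split in direction. For 1000 reads of the mature B cell genes there were 97.1 Pax5 reads in the control and 184 in the cKO, and 24.1 and 42.7 Ebf1 reads. Spib was nearly level, with 50.4 and 47.1 reads per 1000. Per 1000 reads of the same genes, Pou2f2 went from 123 to 61.0, Mef2c from 124 to 55.4, Pou2af1 from 276 to 94.3 and Bcl11a from 193 to 65.7. Xbp1 went from 429 to 107 on this measure and Jchain from 3114 to 709. Most genes fall when set against the mature B cell genes. With these genes set equal by their median, the median log2 ratio over all genes was -2.27, near Xbp1 at -2.08 and Jchain at -2.22. Relative to the 16 T cell core genes all 9 genes were higher in the cKO sample, from a log2 ratio of 0.36 for Jchain to 3.41 for Pax5. This measure raises every gene: scaled by the median of those 16 genes, all genes together had a median log2 ratio of 0.24. Jchain was then at 0.33 and Xbp1 at 0.46, so much of their rise on this measure is shared by all genes.

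**Figure D3:**
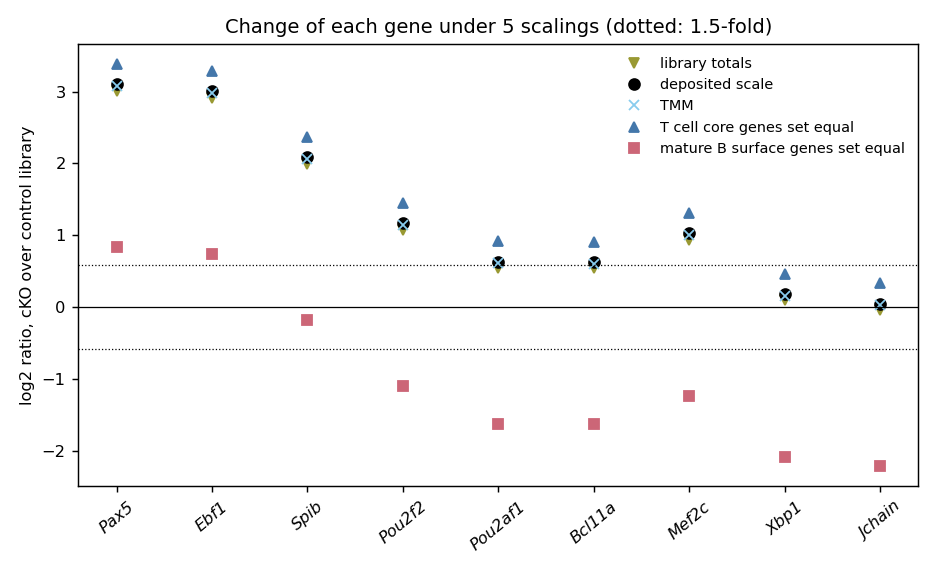
Log2 ratio of each of the 9 genes under 5 scalings of the same 2 libraries, with 0 as a solid line and 1.5-fold dotted. With the mature B cell surface genes set equal (squares), Pax5 at 0.84 and Ebf1 at 0.74 stay above 1.5-fold, Spib lies at -0.18, and the 6 other genes are at or below -1.10. The median over all genes under this last scaling is -2.27.

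Germinal centre genes were higher in part. Of 9 genes, 7 were at least 1.5-fold higher and none was as much lower, with a median log2 ratio of 1.18, also with Rgs13, the 1 gene at 0 reads, set against a floor of 3 reads. Bcl6, the regulator of the germinal centre reaction, which T cells also express, had 1644 and 2242 reads and a ratio of 0.68 (95% interval 0.59 to 0.77). Mybl1, a MYB family factor of germinal centre B cells, had 111 and 221 reads and a ratio of 1.22 (0.89 to 1.57). The receptor gene S1pr2, which keeps cells in the germinal centre, had 207 and 233 reads (0.40, 0.13 to 0.68), and the death receptor gene Fas had 329 and 305 (0.12, -0.11 to 0.35), an interval that included 0. Rgs13, a regulator of G protein signaling that was named after its values were seen, had 0 and 31 reads. Among the 414 genes whose cKO count was 25 to 35 reads, 27 (6.52%) had 0 reads in the control.

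Plasma cell genes other than Xbp1 and Jchain were mostly near their level in the control sample. Of 10 genes, 2 were at least 1.5-fold higher and none was as much lower, with a median log2 ratio of 0.12. Irf4, which activated T cells also express, had 3144 and 2938 reads and a ratio of 0.14 (95% interval 0.06 to 0.21). The elongation factor gene Ell2 had a ratio of -0.36 (-0.46 to -0.26), the surface receptor gene Slamf7 0.51 (0.41 to 0.61) and the endoplasmic reticulum gene Creld2 -0.39 (-0.50 to -0.29). The 2 genes past the threshold, named after their values were seen, were Mzb1, a chaperone of marginal zone B cells and plasma cells, with 1193 and 1635 reads (0.69, 0.58 to 0.80), and Tnfrsf17, which encodes BCMA, with 81 and 148 reads (1.09, 0.70 to 1.51). The interval of Mzb1 included the 1.5-fold threshold. Prdm1 had 1119 and 1029 reads (0.11, -0.01 to 0.24) and Sdc1, which encodes the plasma cell antigen CD138, had 697 and 459 reads (-0.37, -0.54 to -0.20), also named for their role after their values were seen. The 12 constant region genes of the antibody chains, looked up by symbol, had no row among the 20938 genes, so no value can be given for them.

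Targets of XBP1 and other genes of the secretory pathway were close to equal, as Xbp1 was. None of the 12 was 1.5-fold higher or lower, the ratios ran from -0.38 to 0.33, and the median was -5.4e-05. The chaperone gene Hspa5, the most abundant, had 14468 and 12242 reads and a log2 ratio of -0.01 (95% interval -0.04 to 0.03). Edem1 and Pdia4, which act in the disposal and folding of proteins, had ratios of 0.11 (0.06 to 0.16) and 0.22 (0.17 to 0.27), and Ssr1, a subunit of the translocon-associated complex, -0.38 (-0.44 to -0.33).

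**Figure D4:**
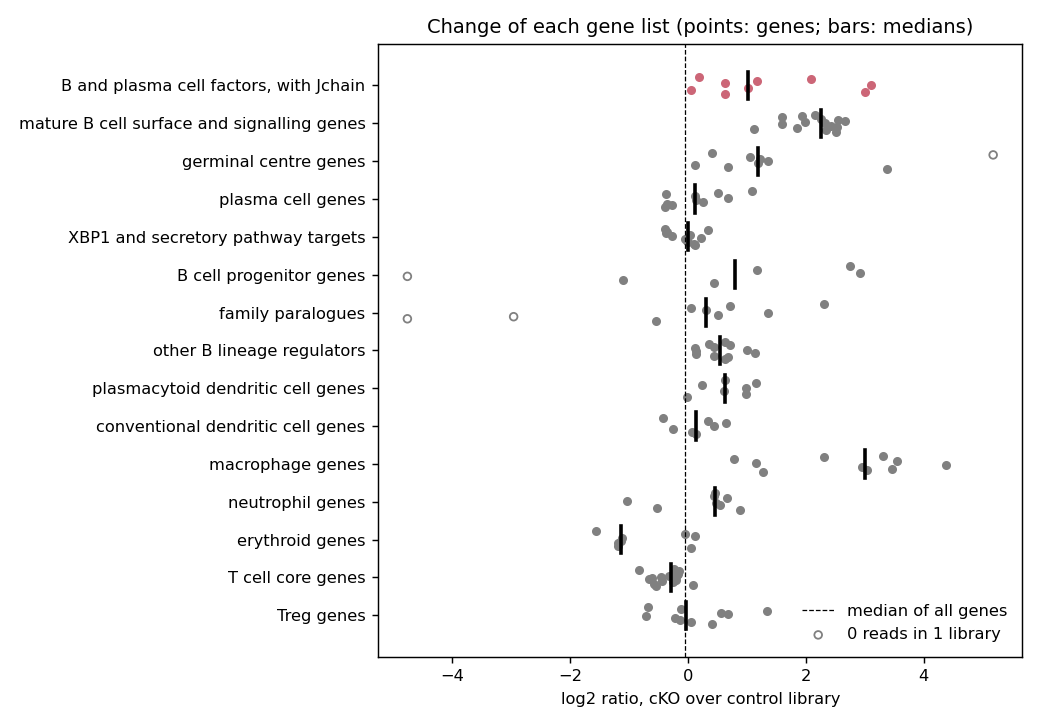
Log2 ratio of the cKO over the control sample for each gene (points) and the median (bars) of 15 gene lists, with the median of all genes dashed; open points have 0 reads in 1 library. The mature B cell list is centred on 2.26 and the macrophage genes run from 0.78 to 4.38, whereas the plasma cell list is centred on 0.12 and the XBP1 target list near 0.

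Other regulators of the B lineage, which T cells or myeloid cells share, differed less than Pax5 and Ebf1. Of 12 such genes, 6 were at least 1.5-fold higher and none was as much lower, with a median log2 ratio of 0.54 and a range from 0.11 to 1.15. Among the 6, the intervals of Bach2 (0.56 to 0.71) and Tcf4 (0.50 to 0.75) included the 1.5-fold threshold. Bcl6, Irf4, Prdm1, Spi1 and Tcf4 are also in other lists given here, so the counts of the lists are not independent. Ikzf3, which encodes AIOLOS, had 3915 and 7370 reads and the highest ratio, 1.15 (95% interval 1.09 to 1.20), while Ikzf1, its relative IKAROS, was at 0.13 (0.10 to 0.17). Foxo1 was at 0.44 (0.38 to 0.51). Among 9 measurable paralogues of the 9 genes, 3 were at least 1.5-fold higher, 2 as much lower and 4 neither. The lower genes, Ebf2 with 27 and 0 reads and Ebf4 with 7 and 0, rest on zeros, and beside Spi1 the higher genes were Spic, a factor of red pulp macrophages, with 33 and 142 reads and Mef2b, a germinal centre factor, with 15 and 34. Bcl11b, the T cell counterpart of Bcl11a, had 5613 and 3283 reads and a ratio of -0.54 (-0.60 to -0.48), Pou2f1, the broadly expressed relative of Pou2f2, was at 0.06 (-0.02 to 0.13), Mef2d at 0.30 (0.25 to 0.36), and Spi1, which encodes PU.1, was at 0.71 (0.63 to 0.79).

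Genes of B cell progenitors gave no single direction. Of 6 genes past the filter, 3 were at least 1.5-fold higher and 2 as much lower. Rag1, a subunit of the recombinase that joins antibody gene segments, had 29 and 193 reads, a log2 ratio of 2.92 (95% interval 2.40 to 3.58), and Vpreb3, which is expressed in B cell precursors and some mature B cells, had 37 and 216 reads (2.74, 2.27 to 3.32). Dntt, which adds bases at the joints and is found in lymphoid progenitors, had 125 and 49 reads (-1.10, -1.63 to -0.63), and Cd93 had 1222 and 1414 (0.44, 0.33 to 0.56). The other gene past the threshold upwards was Rag2, with 12 and 24 reads, and downwards Igll1, a part of the surrogate light chain, with 27 and 0 reads; among the 527 genes whose control count was 25 to 35 reads, 120 had 0 reads in the cKO. Vpreb1 and Vpreb2, parts of the surrogate light chain of pre-B cells, had 0 reads in both libraries.

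Several of the 9 genes are also expressed outside the B lineage, and markers of some of those cells differed between the libraries too. Over all genes compared, 17.2% were at least 1.5-fold higher and 24.2% as much lower. A list whose counts lie near these shares does not stand out from other genes. The lower share depends on zeros. When genes at 0 in either library were left out, 1904 of 13853 genes were at least 1.5-fold lower and 2182 as much higher. Of 10 macrophage genes, all were 1.5-fold or more higher in the cKO sample, with log2 ratios from 0.78 to 4.38; Csf1r, which encodes the receptor that macrophages depend on, had 2197 and 4145 reads, Slc40a1, the iron exporter gene, 1339 and 1960, Vcam1 314 and 2655, and Adgre1, a surface marker of these cells, 346 and 713. Plasmacytoid dendritic cells, which use Spib, Bcl11a, Mef2c and Tcf4, had 5 of 7 genes at least 1.5-fold higher and none as much lower, with summed levels of 2335 and 3340. Of these 7 genes, Tcf4 had 942 and 1234 reads, Pacsin1 747 and 747, Ccr9 268 and 450, and Bst2 341 and 288. The 5 higher genes include Klk1, with 6 and 11 reads, and Cox6a2, with 5 and 7, whose intervals included 0. The interval of Tcf4 (0.50 to 0.75) included the 1.5-fold threshold. Siglech, named after its values were seen, had 105 and 200 reads. Its log2 ratio of 1.16 (0.81 to 1.52) was the highest of the 7. This interval and that of Ccr9 (0.76 to 1.20) lay above the threshold. Conventional dendritic cell genes had 1 of 7 at least 1.5-fold higher, Itgax with 1145 and 1524 reads, while Flt3, Zbtb46 and Clec9a were under 1.5-fold. Of 8 erythroid genes, 5 were at least 1.5-fold lower, among them Ermap, Klf1 and Gata1, and none was as much higher. Hba-a1, a globin gene, had 1691 and 1567 reads and a log2 ratio of 0.12, and Hbb-bt and Alas2 were also under 1.5-fold. In the neutrophil list, Ngp and Camp were as much higher and Mpo as much lower, of 8 genes. Among the 16 T cell core genes, Cd4, Cd3g and Trat1 were as much lower and none was as much higher. Of the 10 Treg genes, Il2ra and Lrrc32 were as much higher and Tnfrsf4 and Ikzf4 as much lower. The intervals of Itgax, Cd4, Il2ra, Tnfrsf4 and Ikzf4 also included the 1.5-fold threshold. No marker in these 7 lists was at 0 in either library, and the part of these cells in the differences of the 9 genes was not tested.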

How the data were processed

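RNA-seq was measured in 1 library of splenic Treg cells for each of 2 genotypes. The study's methods name TopHat and mm10, and the submitters' processing notes name bcl2fastq 2.0, STAR, StringTie and DESeq2; the annotation and the counting step are not given in the sources used here. The deposited values are a signal that the authors made by dividing read counts by 1 factor per library: 100% of the values are whole multiples, within 0.01, of the smallest value (0.967 in the control, 1.14 in the cKO), and dividing by it recovered 20239325 and 18327535 reads. The 2 libraries were compared with a pseudocount of 1, a minimum mean level of 1 and the 1.5-fold threshold of the study, without a test. After the unit was known, a binomial test, exact and two-sided, of these reads against TMM-scaled totals was added (at least 10 reads in both libraries together, Benjamini-Hochberg adjusted p under 0.1 and 1.5-fold). It compares the 2 libraries and not the genotypes, and it called 2094 of 14863 genes higher and 2668 lower, 7 of the 9 genes among the higher.

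Gene lengths and positions are from GENCODE vM21 on GRCm38, where all 9 symbols matched, and promoters are from RefSeq on GRCm38.p6. The 9 genes and the marker lists were chosen with earlier results of these data known. The genes named are the 9, up to 4 of each list by mean level, Mettl14 and Foxp3; genes named beyond these, to fill a count or a range or for their role, were chosen after their values were seen. Single values of some list genes are not reported here. The code was tested on simulated data. Intervals and tests used scipy 1.17.1 (Python 3.11.15, pandas 2.3.3, numpy 2.4.6), figures matplotlib 3.10.9, and in R 4.3.3 edgeR 4.0.16 gave TMM and DESeq2 1.42.0 the median of ratios.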

Additional observations from a re-analysis of the deposited data

How the results depend on the processing

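No paired analysis was possible because there was only 1 library of either genotype, and for the same reason no sample could be left out. Under the median of ratios, a pseudocount of 0.1 or 5, or no filter, all values stayed within their counting intervals or, for counts, within 1.5 times. Scaled to library totals, Bcl11a was at 0.54, Pou2af1 at 0.54, Xbp1 at 0.091 and Jchain at -0.042 on the log2 scale, and with TMM Jchain was at 0.026. When the T cell core genes were made equal, the median over all genes was 0.24 in place of -0.04, a shift that every value shares: Pax5 was at 3.38, Ebf1 at 3.29, Spib at 2.37, Pou2f2 at 1.45, Mef2c and the median of the 9 genes at 1.31, Pou2af1 at 0.92, Bcl11a at 0.91, Xbp1 at 0.46 and Jchain at 0.33, with medians of 2.55 for the mature B cell and 0.41 for the plasma cell list. With the mature B cell surface genes set equal, their median is 0 by construction and that of all genes was -2.27; Pax5 was at 0.84, Ebf1 at 0.74, Spib at -0.18, Pou2f2 at -1.10, Mef2c and the median of the 9 genes at -1.24, Pou2af1 at -1.63, Bcl11a at -1.64, Xbp1 at -2.08 and Jchain at -2.22, so that 2 of the 9 genes were 1.5-fold higher and 6 lower, and the germinal centre and plasma cell medians were -1.04 and -2.14.

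Over all genes, 2864 were 1.5-fold higher and 4028 lower, so that 41.6% of the changed genes were higher. The number higher was 4547 under the T cell core scaling (58.3% of the changed genes), 345 with the mature B cell genes set equal (2.18%), and 1722 at a 2-fold threshold. The number lower was 15509 with the mature B cell genes set equal, 2035 at a minimum mean level of 10, 1904 with only genes above 0 in both libraries (53.4% of the changed genes higher), and 2668 with the exact binomial test, which was chosen after seeing the data. A minimum level or the removal of zeros leaves fewer genes to count, 13676 and 13853 in place of 16659. The lower calls fell more than the higher ones. At the minimum level of 10, 2112 genes were higher beside the 2035 lower, and without zeros 2182 beside the 1904. The larger number of lower genes in the main comparison thus depends on genes at 0 or at a low level. The floor of 3 reads is 0.148 per 1000000 reads in the control and 0.164 in the cKO library, and all 9 genes were far above it.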
